A study of Homo sapiens with 54 samples.

Results

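The Krüppel-associated box (KRAB) zinc finger genes that lie outside chromosome 19 are described here across 3 colorectal cancer lines. The 60 genes were listed by symbol from the gene column of the deposited tables, out of 59368 genes there. No threshold on their values was used, but earlier results of these data were known when the list was made. All 60 symbols were found, and their coding transcripts held a KRAB domain in 60 of 60 and between 5 and 24 C2H2 zinc fingers, with a median of 10. The same search found 373 genes with a KRAB domain and at least 1 zinc finger in the annotation, of which 229 were on chromosome 19 and 144 elsewhere, so the 60 genes are a part of those elsewhere. They lay on 16 chromosomes, with 9 each on chromosomes 1, 7 and 16, 7 on chromosome 12 and 1 on the X chromosome.

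KRAB zinc finger proteins (KZFPs) are the largest family of transcription repressors in mammals. Their tandem zinc fingers read DNA sequence, often within transposable elements, and the KRAB domain recruits the scaffold TRIM28 (KAP1). TRIM28 brings the histone methyltransferase SETDB1, heterochromatin proteins of the HP1 family, histone deacetylases and DNA methyltransferases, so the bound site becomes heterochromatin. Most human KZFP genes arose by local duplication and sit in clusters, the largest of them on chromosome 19. A subset also carries a SCAN domain, through which the proteins pair with each other. The KRAB domain of ZNF10, also known as KOX1, is the one joined to inactive Cas9 in CRISPR interference.

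The study used established human colorectal cancer lines (DLD-1, HCT-116, HT-29), each as 5-FU-sensitive cells and as matching 5-FU-resistant cells. 5-FU (5-fluorouracil) is an antimetabolite that blocks thymidylate synthesis, and resistance was obtained by passaging cells in rising concentrations of it. Both kinds of cell received 10 µM uracil for 24 h as the control, 10 µM 5-FU for 24 h, or 5-FU with irradiation. Resistant cells had been maintained in medium with 5-FU at a concentration above that of the treatment. The irradiation dose was set separately for each line and so differed between lines. The 3 lines, 2 sensitivities and 3 treatments gave 18 groups of 3 libraries, 54 in all. The labels separate no further resistant populations within a line, so a difference between resistant and sensitive cells is that of 1 labelled population. The study describes its RNA samples as biological triplicates, but nothing in the labels says that replicates came from separate cultures. The p-values therefore measure the spread between these samples, which may be technical.

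The total estimated count per library ran from 38957142 to 218518344, with a median of 51373543, and the next deepest library had 86673615. Marker genes of a sensitive line, high there and near 0 in the other sensitive lines, were used to check the labels. Resistant DLD-1 cells kept 19 of 20 DLD-1 markers at 1 TPM or more under uracil, and resistant HCT-116 cells 62 of 64 HCT-116 markers. The libraries labelled resistant HT-29 held 0 of 12 HT-29 markers and 62 of 64 HCT-116 markers. They were therefore set against sensitive HCT-116 as well as sensitive HT-29 cells, and in the latter comparison line and resistance cannot be told apart. Epithelial markers reached 1 TPM for 7 to 10 of 11 genes in each uracil group, fibroblast markers for 0 to 1 of 6, leukocyte markers for 1 to 2 of 5 and endothelial markers for 0 to 1 of 3. CD3E of T cells, CDH5 of endothelium and COL1A2 of fibroblasts were under 0.1 TPM in every uracil group. Other genes of these lists were not: the leukocyte list summed to 1430 to 1560 TPM in sensitive HT-29 uracil libraries. The fibroblast list summed to 20.2 to 24.7 TPM in sensitive HCT-116 uracil libraries. The epithelial genes CDX1 and VIL1 were under 0.1 TPM under uracil in both kinds of HCT-116 cell and in libraries labelled resistant HT-29. In bulk samples fewer cells of a type and less RNA per cell cannot be told apart.

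Of the 60 genes, 54 had a promoter window in RefSeq, from 250 bases before to 50 after the gene's start on GRCh38.p14. The window held a median of 22 CpG dinucleotides (from 4 in ZNF436 to 49 in ZNF514), against a median of 14 over all 35116 windows. At least 15 CpG were found in 46 of the 54 windows (85.2%), and in 48.9% of all windows. The 6 windows shown belong to genes called between resistant and sensitive cells in the results that follow: ZNF84, ZNF268 and ZNF26 of 1 cluster on chromosome 12, ZNF669 on chromosome 1, and ZNF141 and ZNF595 near the end of chromosome 4. They are written 5′ to 3′ on the gene's strand, with each CpG, the dinucleotide that DNA methyltransferases act on, in capitals. The ZNF84 window (chr12:133037259-133037558, + strand) held 46 CpG, that of ZNF268 (chr12:133181245-133181544, + strand) 20 and that of ZNF26 (chr12:132986117-132986416, + strand) 28. The ZNF669 window (chr1:247104307-247104606, − strand) held 22 CpG, that of ZNF141 (chr4:337564-337863, + strand) 16 and that of ZNF595 (chr4:53071-53370, + strand) 12.
ZNF84: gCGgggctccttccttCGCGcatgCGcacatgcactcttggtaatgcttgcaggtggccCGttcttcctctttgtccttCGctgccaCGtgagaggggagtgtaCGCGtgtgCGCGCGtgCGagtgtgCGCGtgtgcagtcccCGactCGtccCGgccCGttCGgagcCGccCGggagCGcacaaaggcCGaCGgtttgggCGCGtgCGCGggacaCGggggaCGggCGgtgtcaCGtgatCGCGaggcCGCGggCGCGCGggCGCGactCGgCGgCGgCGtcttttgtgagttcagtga
ZNF268: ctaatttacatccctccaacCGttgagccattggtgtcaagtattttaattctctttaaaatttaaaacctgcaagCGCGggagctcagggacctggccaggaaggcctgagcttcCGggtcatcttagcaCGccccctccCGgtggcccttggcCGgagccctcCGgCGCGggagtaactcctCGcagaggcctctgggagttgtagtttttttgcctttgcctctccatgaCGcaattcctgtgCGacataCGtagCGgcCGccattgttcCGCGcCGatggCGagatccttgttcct
ZNF26: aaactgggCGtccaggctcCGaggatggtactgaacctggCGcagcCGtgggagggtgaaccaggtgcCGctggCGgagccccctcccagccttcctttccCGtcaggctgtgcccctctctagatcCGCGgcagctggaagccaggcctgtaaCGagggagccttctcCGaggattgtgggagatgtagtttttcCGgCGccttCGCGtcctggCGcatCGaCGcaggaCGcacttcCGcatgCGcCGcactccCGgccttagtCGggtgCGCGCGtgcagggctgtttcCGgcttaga
ZNF669: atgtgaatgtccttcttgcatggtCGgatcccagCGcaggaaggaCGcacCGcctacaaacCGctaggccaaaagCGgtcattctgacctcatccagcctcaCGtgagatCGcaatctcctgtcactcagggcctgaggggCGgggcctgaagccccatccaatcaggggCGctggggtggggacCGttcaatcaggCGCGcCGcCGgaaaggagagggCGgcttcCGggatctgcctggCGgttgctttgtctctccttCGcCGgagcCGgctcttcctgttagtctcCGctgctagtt
ZNF141: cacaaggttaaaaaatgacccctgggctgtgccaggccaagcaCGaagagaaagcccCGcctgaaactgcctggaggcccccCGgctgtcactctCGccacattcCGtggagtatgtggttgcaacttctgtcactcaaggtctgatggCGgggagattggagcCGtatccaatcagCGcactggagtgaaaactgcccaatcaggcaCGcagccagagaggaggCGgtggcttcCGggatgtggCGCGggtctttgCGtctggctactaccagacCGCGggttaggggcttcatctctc
ZNF595: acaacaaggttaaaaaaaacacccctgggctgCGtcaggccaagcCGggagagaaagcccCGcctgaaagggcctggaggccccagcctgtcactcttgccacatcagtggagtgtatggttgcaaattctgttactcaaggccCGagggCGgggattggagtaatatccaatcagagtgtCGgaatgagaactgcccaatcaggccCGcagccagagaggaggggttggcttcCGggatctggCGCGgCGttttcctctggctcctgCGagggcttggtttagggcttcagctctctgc

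ZNF182 and ZFP69B were the members for which the study designed RT-qPCR primers, so their amplified stretches say which transcripts that assay reads. The ZNF182 pair matched ZNF182-201 and ZNF182-202 with a product of 114 bases. The ZFP69B pair matched ZFP69B-201, ZFP69B-202, ZFP69B-203 and ZFP69B-204 with a product of 199 bases.
ZNF182 forward: gcctggtgtgaatgctccgg
ZNF182 reverse: aaagcagagatgtgtgacggcc
ZFP69B forward: acctggcgtgatttcccagttg
ZFP69B reverse: ggtggaatacatgctgcttccttttg

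Most members were transcribed in every line, at a low to moderate level. Levels are given in TPM, kallisto's transcript level corrected for length and depth, so that genes can be compared. Under uracil 56 of 60 members had a mean of at least 1 TPM in sensitive DLD-1 cells and 54 in resistant ones. The counts were 50 and 46 for HCT-116, 56 for sensitive HT-29 and 46 for the libraries labelled resistant HT-29, and 44 members reached 1 TPM in all 6 uracil groups. ZNF195 had the highest mean level over the 54 libraries, 39.1 TPM (library range 25.7 to 59.9). ZNF721 followed at 31.3 TPM (17.2 to 45.1) and ZNF263 at 29.3 TPM (22.5 to 37.5). Their library ranges overlapped, so neighbours in this order were not separated. ZNF287 had the lowest mean level, 0.0531 TPM, and was under 0.1 TPM in every group. ZNF300 held 1.27, 1.42 and 1.21 TPM in sensitive HT-29 uracil libraries and was under 0.1 TPM in every group of the other cells. ZNF595 averaged 0.699 TPM over all libraries, with the high values in sensitive HT-29 and resistant DLD-1 cells.

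**Figure D1:**
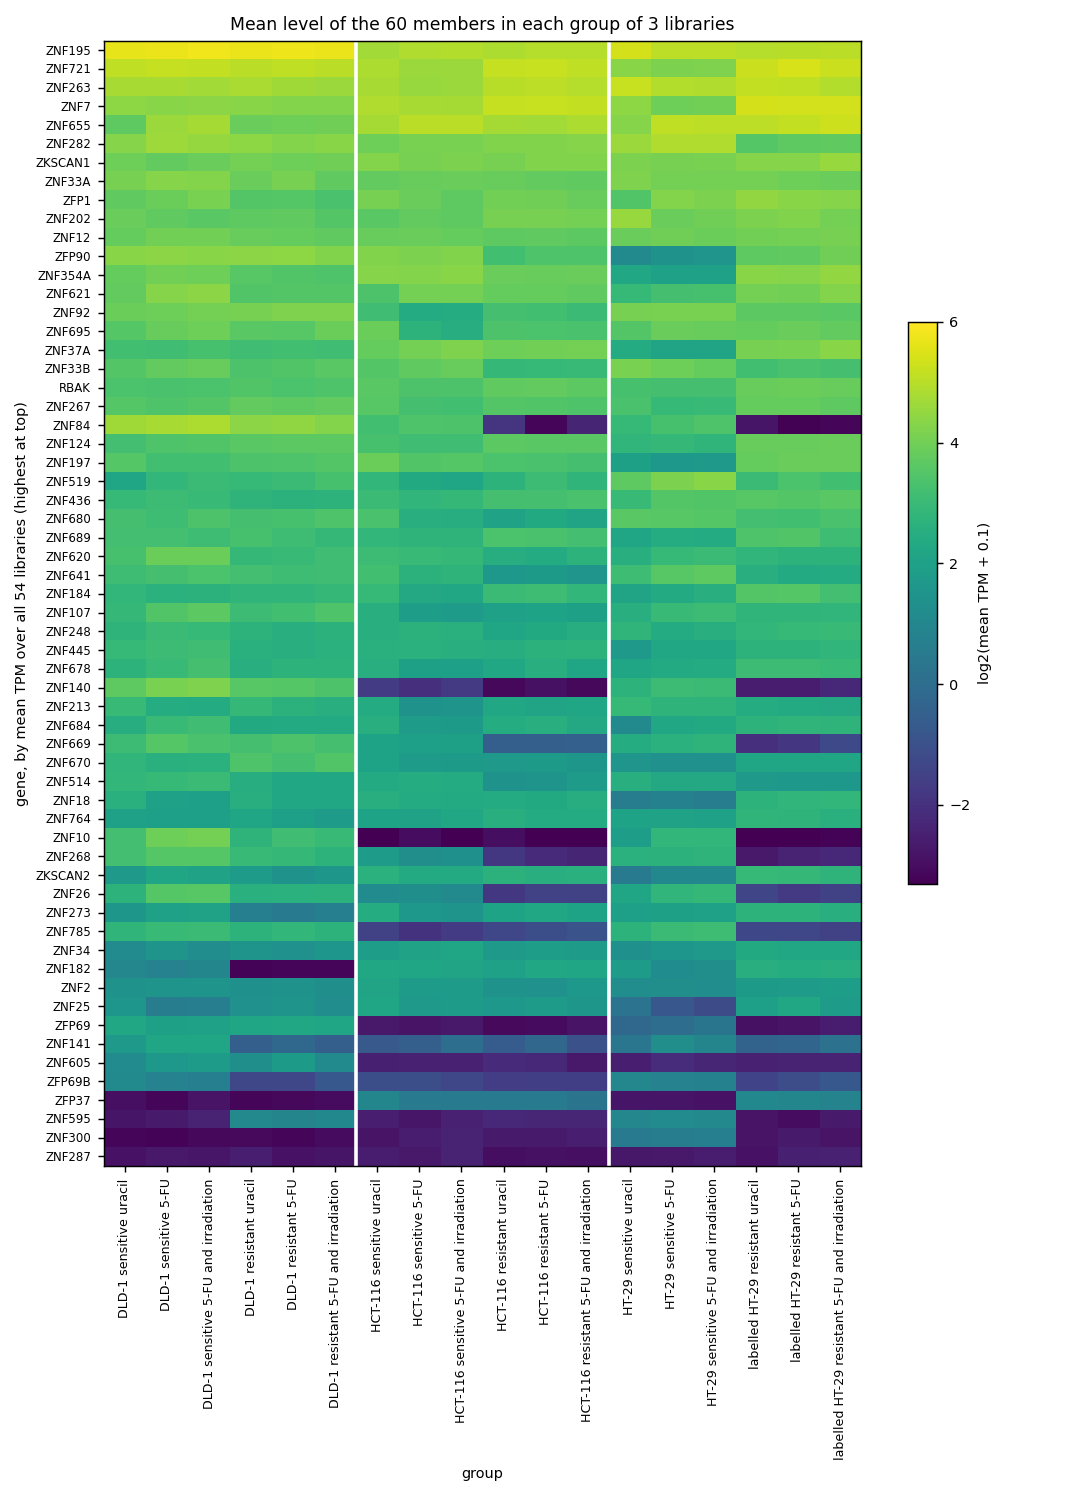
Heat map of log2(mean TPM + 0.1) for the 60 members (vertical axis, ordered by mean TPM) in the 18 groups (horizontal axis), each cell the mean of 3 libraries. Most members keep a similar colour across groups, while ZNF84, ZNF268 and ZNF26 of the chromosome 12 cluster are near the bottom of the scale in resistant HCT-116 cells and the labelled resistant HT-29 groups.

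A minority of members accounted for the largest differences between cells. As a ratio of the highest to the lowest of the 6 uracil group means, each with 0.1 TPM added, 18 members varied by less than 2-fold, 23 by 2- to 4-fold and 19 by 4-fold or more, with a median of 2.63-fold. ZNF263 varied by only 1.34-fold, from 27.5 to 36.7 TPM. At the other end stood ZNF84 at 181-fold, ZNF140 at 113-fold, ZNF10 at 93.4-fold and ZNF268 at 60-fold, all neighbours on chromosome 12. The summed level of the 60 members moved little in DLD-1, from 604.4 ± 3.75 TPM (SD, n = 3) in sensitive to 590.0 ± 6.71 TPM in resistant cells under uracil. In HCT-116 it went from 536.2 ± 11.9 to 500.6 ± 14.8 TPM. It was 505.0 ± 16.9 TPM in sensitive HT-29 cells and 601.5 ± 9.62 TPM in the libraries labelled resistant HT-29.

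In DLD-1 cells, ZNF182, ZNF141 and ZFP69B were lower in resistant than in sensitive cells and ZNF595 was higher. A gene was called when edgeR's quasi-likelihood test gave it a Benjamini-Hochberg adjusted p no higher than 0.01 and its log2 fold change reached 1 in size. Under uracil 3 of the 58 members tested were lower in resistant cells and 1 was higher, beside 2.01% and 3.69% of the 21816 genes tested. Without the fold threshold, 13 were lower and 9 higher, beside 11.5% and 13.1% of all genes. The median log2 fold change was -0.04 over the members and -0.01 over all genes tested. ZNF300 and ZFP37 were too low in DLD-1 cells to be tested.

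ZNF182 (chrX:47974851-48003989, − strand), the only member on the X chromosome, held 1.81, 1.91 and 1.96 TPM in the 3 sensitive DLD-1 uracil libraries. The resistant uracil libraries held 0.0109, 0.01 and 0 TPM, which is 1, 1 and 0 estimated counts. The groups did not overlap, and resistant cells were at least 59.3-fold lower under uracil, taken against a floor of 3 counts in the shallowest library of the low group. Under 5-FU the same bound was 45.9-fold and under 5-FU and irradiation 58.4-fold, with at most 2 counts in any resistant library. The fitted log2 fold change was -7.98 ± 0.34 (SE, adjusted p = 1.24e-13), and both it and its SE depend on the prior count for a gene this low. Throughout, the SE of a log2 fold change is its size divided by the square root of the test's F value. ZNF182 was not low in the other cells: it held 4.53, 4.5 and 5.12 TPM in sensitive and 3.74, 3.88 and 4.33 TPM in resistant HCT-116 cells. Its locus overlaps ZNF630 on the same strand and ZNF81 on the other.

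ZNF141 (chr4:337814-384868, + strand), a gene that has been linked to polydactyly, held 3.71, 3.06 and 2.69 TPM in sensitive DLD-1 uracil libraries. In resistant ones it held 0.565, 0.679 and 0.59 TPM, a log2 fold change of -3.07 ± 0.12 (SE, adjusted p = 3.69e-14), with no overlap. ZNF595 (chr4:53286-88208, + strand), a neighbour at the same chromosome end, went the other way. Its sensitive libraries held 0.0511, 0.048 and 0.0328 TPM and its resistant libraries 2.15, 1.82 and 2.04 TPM. The log2 fold change was 4.23 ± 0.35 (SE, adjusted p = 5.12e-09), again with no overlap. The third member of that locus, ZNF721 (chr4:425815-499156, − strand), did not pass the test, at -0.04 ± 0.06 (adjusted p = 0.625).

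ZFP69B (chr1:40450102-40463718, + strand) held 1.89, 2.21 and 2.12 TPM in sensitive DLD-1 uracil libraries and 0.334, 0.215 and 0.348 TPM in resistant ones. Its log2 fold change was -2.79 ± 0.19 (SE, adjusted p = 1.78e-10), and every resistant library lay under every sensitive one. The neighbouring member ZFP69 held 4.93, 4.44 and 4.94 TPM in sensitive and 4.3, 4.46 and 4.85 TPM in resistant libraries, at -0.12 ± 0.11 (adjusted p = 0.456). Apart from the 4 called genes, the members past the adjusted p ranged from -0.77 (ZNF273) to 0.90 (ZNF519) on the log2 scale.

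**Figure D2:**
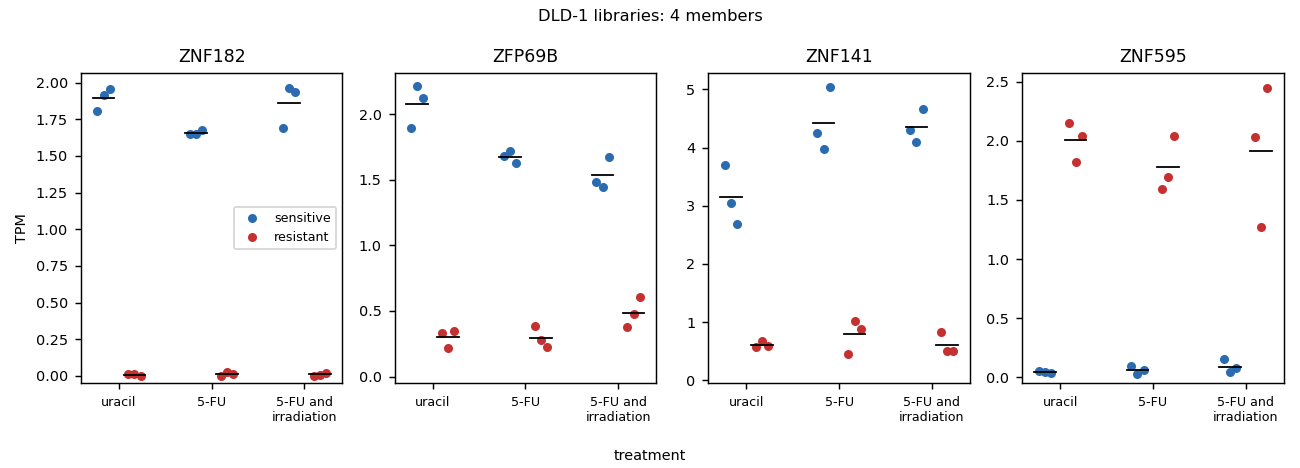
TPM of ZNF182, ZFP69B, ZNF141 and ZNF595 (vertical axes, each from near 0) in the 18 DLD-1 libraries by treatment, 1 point per library with a bar at the mean of 3. ZNF182, ZFP69B and ZNF141 are lower in all 9 resistant libraries than in any of the 9 sensitive ones, and ZNF595 is higher.

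The deposited transcript values show which annotated transcripts carried these differences. In sensitive DLD-1 cells 90.9% of the ZNF141 estimated count fell on ZNF141-201, which starts at position 337814 and averaged 0.966 TPM, and ZNF141-203, which starts at 337833, averaged 1.58 TPM. In resistant cells these were at 0.0956 and 0.0243 TPM, while ZNF141-206, which starts further inside the gene at 378039, averaged 0.44 TPM and took 18.7% of the count. ZNF141-201 and ZNF141-203 both start within the window shown above. ZNF595 in resistant DLD-1 cells was read on ZNF595-201 (0.833 TPM) and ZNF595-202 (1.17 TPM), whereas in sensitive HT-29 cells it was read on ZNF595-203 (0.932 TPM) and ZNF595-205 (0.8 TPM). A similar gene level of ZNF595 therefore stood for different annotated transcripts in those cells. These transcript values are means of 3 libraries, given without a test.

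In HCT-116 cells, 9 members were lower in resistant cells under uracil and 0 were higher. Of the 60 members 56 were tested (ZFP69, ZNF10, ZNF595 and ZNF300 were too low), and 6.8% and 4.17% of the 22975 genes tested were lower and higher. By the adjusted p alone 21 members were lower and 12 higher, beside 24.7% and 16.4% of all genes. The median log2 fold change was -0.19 over the members and 0.00 over all genes. The 12 higher members rose by 0.15 to 0.53 on the log2 scale, with ZNF689 at 0.53 ± 0.06 and ZNF721 at 0.42 ± 0.05.

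Of the 9 lower genes, 4 were neighbours near the end of the long arm of chromosome 12 (chr12:132918306-133214832, GRCh38), where 6 members lie within 296527 bases. ZNF84 (chr12:133037292-133063304, + strand), with 19 zinc fingers, held 7.77, 9.59 and 9.28 TPM in sensitive and 0.0043, 0 and 0.518 TPM in resistant HCT-116 uracil libraries. Almost all of the resistant reads were in 1 library, at 51.1 estimated counts against 1 and 0 in the others. The log2 fold change was -5.45 ± 0.37 (SE, adjusted p = 3.98e-11), and without that library (resistant uracil replicate 3), with 1 and 0 counts left, ZNF84 was at least 232-fold lower. Under 5-FU, where no resistant library had over 1.03 counts, ZNF84 was at least 315-fold lower in resistant cells.

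ZNF268 (chr12:133181409-133214832, + strand), with 24 fingers the longest array among the members, held 3.21, 3.38 and 3.59 TPM in sensitive and 0.11, 0.212 and 0.222 TPM in resistant HCT-116 uracil libraries. The log2 fold change was -2.69 ± 0.13 (SE, adjusted p = 2.42e-13). ZNF26 (chr12:132986365-133032952, + strand) held 2.6, 2.14 and 1.77 TPM in sensitive and 0.188, 0.177 and 0.191 TPM in resistant libraries, a log2 fold change of -1.95 ± 0.11 (adjusted p = 1.94e-12). Neither gene's groups overlapped.

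ZNF140 (chr12:133080474-133107526, + strand) was already low in sensitive HCT-116 cells, at 0.162, 0.17 and 0.286 TPM, and held 0.0074, 0 and 0.0351 TPM in resistant ones. Its log2 fold change was -3.84 ± 0.68 (adjusted p = 6.23e-05), and without resistant uracil replicate 3, the library that also held the ZNF84 reads, it was at least 7.7-fold lower, with 1 and 0 counts left. It overlaps ZNF891 on the opposite strand. ZNF10 (chr12:133130575-133159465, + strand) was listed at 0 in the 3 sensitive HCT-116 uracil libraries. ZNF605 (chr12:132918306-132956306, − strand) held 0.0965, 0.0763 and 0.062 TPM there and 0.121, 0.147 and 0.0725 TPM in resistant libraries, at 0.27 ± 0.39 (adjusted p = 0.593). These 2 genes were thus near 0 in HCT-116 cells of both kinds.

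Summed over the 6 genes, the chromosome 12 cluster held 65.7 ± 1.95 TPM (SD, n = 3) in sensitive and 54.9 ± 6.49 TPM in resistant DLD-1 uracil libraries. In HCT-116 the sum was 14.7 ± 0.792 TPM in sensitive and 0.695 ± 0.311 TPM in resistant libraries. Sensitive HT-29 libraries held 28 ± 1.99 TPM and those labelled resistant HT-29 0.529 ± 0.26 TPM. In DLD-1 the cluster stayed high in resistant cells: ZNF268 fell by a little (-0.35 ± 0.08 (adjusted p = 0.00186)), as did ZNF10 (-0.36 ± 0.07 (adjusted p = 0.000432)), and ZNF605 rose (0.39 ± 0.11 (adjusted p = 0.00741)). The direct test of the difference between lines (resistant minus sensitive, DLD-1 minus HCT-116) gave 5.26 ± 0.34 (adjusted p = 4.06e-15) for ZNF84 and 3.71 ± 0.54 (adjusted p = 5.29e-07) for ZNF140. It gave 2.39 ± 0.15 (adjusted p = 2.39e-15) for ZNF268 and 1.93 ± 0.14 (adjusted p = 1.5e-13) for ZNF26. The ZNF84 and ZNF140 values rest on the few counts left in resistant HCT-116 libraries, most of them in replicate 3.

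**Figure D3:**
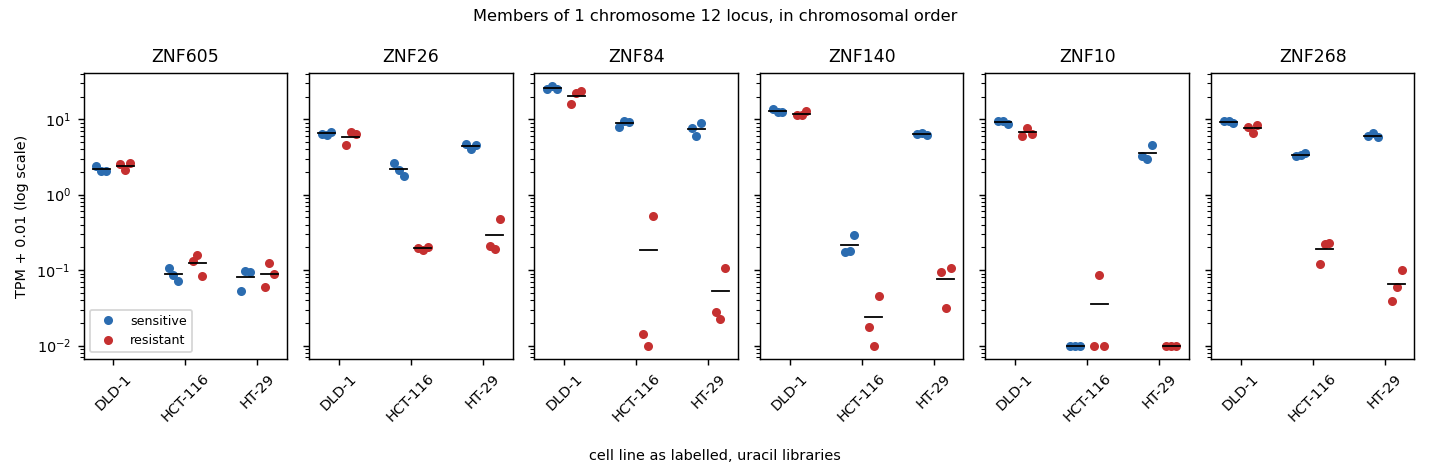
TPM + 0.01 on a log axis for the 6 chromosome 12 members in the 18 uracil libraries, 1 point per library with a bar at the mean of 3, by line and sensitivity as labelled. Both kinds of DLD-1 cell stay above 2 TPM for every gene, and points of resistant HCT-116 cells and of the libraries labelled resistant HT-29 lie under 1 TPM.

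Genes beside the cluster were compared, chosen by position after the members' values had been seen. POLE, PXMP2, PGAM5, ANKLE2 and GOLGA3, on the side away from the chromosome end, ran from 18.9 to 95.6 TPM in the uracil groups, and 0 of these 5 passed both thresholds between resistant and sensitive HCT-116 cells. POLE, the catalytic subunit of a replicative DNA polymerase, was higher there (0.38 ± 0.06 (adjusted p = 1.1e-05)) and PXMP2 lower (-0.28 ± 0.07 (adjusted p = 0.00194)), both by the adjusted p alone. CHFR, a mitotic checkpoint gene that overlaps ZNF605, was at 0.179 to 0.519 TPM in 5 of the 6 uracil groups and at 5.4 TPM in sensitive HT-29 cells. ZNF891, the gene opposite ZNF140, was at 3.73 and 2.15 TPM in sensitive and resistant DLD-1, at 1.64 TPM in sensitive HT-29 and at 0.0481 to 0.104 TPM elsewhere. Unlike ZNF140, its mean was not lower in resistant than in sensitive HCT-116 uracil libraries, at 0.0892 and 0.0481 TPM.

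What remained of ZNF26 and ZNF268 in resistant HCT-116 cells was read on their longest transcripts. ZNF26-201, of 17697 bases, took 47% of the ZNF26 estimated count in sensitive and 85.6% in resistant cells, while ZNF26-203, which averaged 0.835 TPM in sensitive cells, had no assigned count in resistant ones. ZNF268-205, of 13390 bases, took 32% of the ZNF268 count in sensitive and 97.1% in resistant HCT-116 cells, and 100% in those labelled resistant HT-29. The TPM of these genes therefore fell further than the count: the mean ZNF26 count went from 281.5 to 77.12, while its level went from 2.17 to 0.185 TPM. The fold changes above are on counts.

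The other 5 genes lower in resistant HCT-116 cells lay apart from that cluster, on chromosomes 1, 2, 7, 12 and 16. ZNF669 (chr1:247099962-247104372, − strand) fell most among them, from 4.13, 4.41 and 3.85 TPM to 0.504, 0.608 and 0.734 TPM, a log2 fold change of -2.92 ± 0.16 (adjusted p = 1.59e-12). Its neighbours moved less: ZNF670 was at -0.42 ± 0.09, ZNF695 at -0.38 ± 0.08 and ZNF124 higher at 0.31 ± 0.08, each past the adjusted p. ZNF641 (chr12:48337180-48351414, − strand) went from 9.21, 8.82 and 8.69 TPM to 2.26, 3.91 and 2.88 TPM, at -1.70 ± 0.07 (adjusted p = 2.38e-14). ZFP90 (chr16:68530090-68576072, + strand) went from 19.1, 18.6 and 18.5 TPM to 8.15, 8.97 and 9.72 TPM, at -1.15 ± 0.06 (adjusted p = 1.52e-12). In these 3 genes the groups did not overlap.

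ZNF680 (chr7:64519878-64563075, − strand) went from 10.8, 9.83 and 9.32 TPM to 3.77, 3.56 and 4.88 TPM in HCT-116, at -1.26 ± 0.09 (adjusted p = 1.58e-10). ZNF514 (chr2:95122087-95165668, − strand) went from 5.3, 5.13 and 4.95 TPM to 2.26, 2.68 and 2.82 TPM, at -1.13 ± 0.08 (adjusted p = 1.72e-10), and neither gene's groups overlapped. The transcript ZNF514-202 went from 0.917 to 0.105 TPM and ZNF514-201 from 0.976 to 0.609 TPM. ZNF514 overlaps the member ZNF2 on the opposite strand, and ZNF2 was also lower, at -0.66 ± 0.09 (adjusted p = 2.19e-06).

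**Figure D4:**
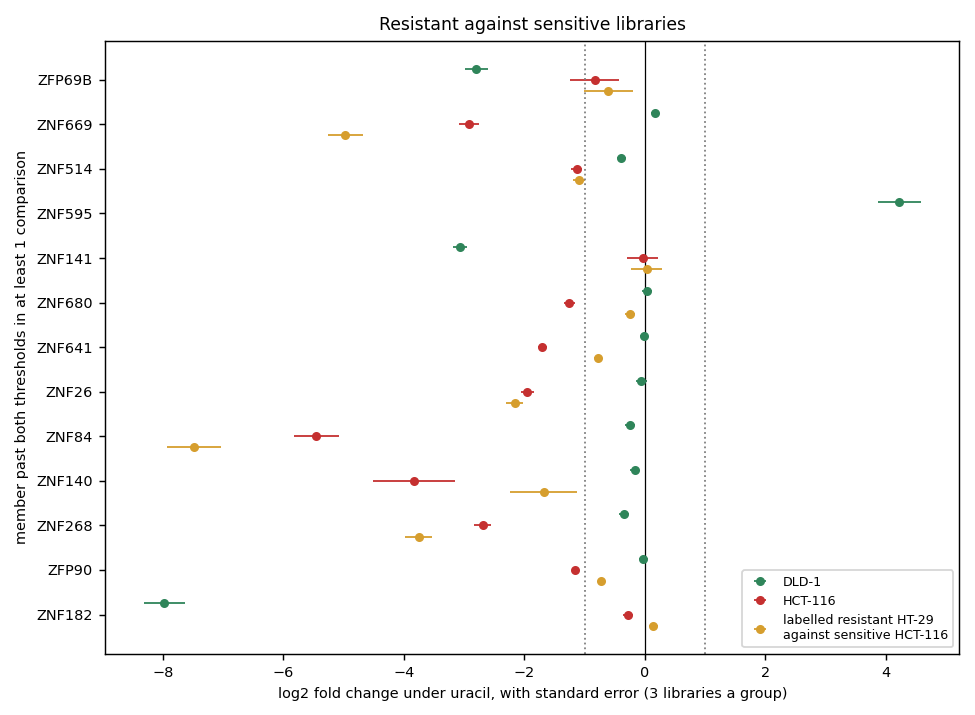
Log2 fold change with SE (horizontal axis) under uracil for the 13 members called in at least 1 of 3 comparisons: resistant against sensitive DLD-1, resistant against sensitive HCT-116, and libraries labelled resistant HT-29 against sensitive HCT-116 (3 libraries a group, dotted lines at the fold threshold). Both sets of points that share sensitive HCT-116 controls lie under 0 for ZNF84, ZNF140, ZNF268 and ZNF26, where the DLD-1 points lie near 0, and ZNF595 was tested in DLD-1 only.

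Resistant DLD-1 and resistant HCT-116 cells had 0 called members in common among the 55 tested in both, beside 0.301% of 20266 genes lower in both and 0.276% higher in both. Without the fold threshold, 6 members were lower in both lines (ZNF182, ZNF268, ZNF273, ZNF354A, ZNF514 and ZNF620) and 1 was higher (ZNF124), which is 10.9% and 1.82% of the members beside 3.46% and 1.9% of genes. ZNF620 went from 10.0, 9.79 and 9.28 TPM to 7.01, 7.51 and 7.29 TPM in DLD-1 and from 8.64, 8.2 and 8.25 TPM to 6.19, 4.99 and 5.22 TPM in HCT-116. ZNF124 went from 8.84, 9.23 and 9.38 TPM to 9.78, 13.7 and 12.8 TPM in DLD-1 and from 9.75, 9.77 and 9.13 TPM to 11.5, 14.2 and 11.7 TPM in HCT-116. Within each line the groups of both genes did not overlap. In the direct test of the difference between lines, 3 of 59 members had the lower and 10 the higher value in DLD-1 past both thresholds, beside 3.74% and 8.53% of the 24807 genes tested. ZNF595 is among these 10 but was too low in HCT-116 cells to be tested there, so its value carries the DLD-1 rise alone.

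The libraries labelled resistant HT-29 differed from sensitive HT-29 cells in 25 of 60 members, 15 lower and 10 higher, while 18% and 21.4% of the 23758 genes tested were lower and higher. By the adjusted p alone 26 members were lower and 26 higher, beside 34.3% and 34.1%. ZNF10 held 3.28, 2.94 and 4.55 TPM in sensitive HT-29 libraries and was listed at 0 in the 3 libraries labelled resistant, at least 52-fold lower. ZNF84 went from 7.68, 5.93 and 8.82 TPM to 0.0182, 0.0124 and 0.0971 TPM, a log2 fold change of -7.28 ± 0.18 (adjusted p = 1.16e-22). ZNF140 went from 6.44, 6.59 and 6.21 TPM to 0.0836, 0.0214 and 0.0966 TPM, at -5.87 ± 0.22 (adjusted p = 1.94e-18). Of the chromosome 12 cluster 5 of 6 members were lower here, all but ZNF605.

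The largest rise in that comparison was ZFP37, from 0.0175, 0.0407 and 0.0701 TPM in sensitive HT-29 to 1.93, 1.99 and 1.86 TPM in the libraries labelled resistant, at 4.93 ± 0.26 (adjusted p = 3.46e-15). Sensitive HCT-116 libraries held 1.85, 1.61 and 2.06 TPM of ZFP37, a range that holds the values of the libraries labelled resistant HT-29. ZKSCAN2 rose from 1.39, 1.43 and 1.06 TPM to 7.24, 7.63 and 7.36 TPM, at 2.26 ± 0.07 (adjusted p = 4.62e-21). ZFP90 rose from 2.14, 2.12 and 2.11 TPM to 11.9, 12.8 and 13.9 TPM, at 2.21 ± 0.08 (adjusted p = 3.34e-19). None of these 3 genes had overlapping groups. ZNF595, ZNF669, ZNF300, ZNF785, ZFP69 and ZFP69B were among the lower genes, from -5.78 (ZNF595) to -3.10 (ZFP69B).

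Against sensitive HCT-116 cells, the libraries labelled resistant HT-29 had 5 of 56 members lower and 0 higher under uracil, beside 4.85% and 2.56% of the 23598 genes tested. Without the fold threshold, 11 were lower and 20 higher, beside 19.3% and 15.4%. The 5 lower genes were ZNF84 (-7.49 ± 0.45), ZNF669 (-4.97 ± 0.29), ZNF268 (-3.75 ± 0.23), ZNF26 (-2.16 ± 0.14) and ZNF514 (-1.09 ± 0.10), and each was also among the 9 genes lower in resistant HCT-116 cells. Both comparisons use the same 3 sensitive HCT-116 libraries, so they are not independent. The share of all genes lower in both was not computed. ZNF669 held 0.0719, 0.194 and 0.15 TPM in the libraries labelled resistant HT-29, under its lowest resistant HCT-116 library. ZNF680 held 8.49, 10.2 and 8.62 TPM there, at -0.24 ± 0.09 (adjusted p = 0.0225) against sensitive HCT-116 cells, and ZNF641 was at -0.77 ± 0.07 (adjusted p = 5.28e-11). Over DLD-1, HCT-116 and this comparison, 13 members were called at least once and 47 were not. The 47 include ZNF300, too low to be tested in any of them, and ZFP37, ZFP69 and ZNF10, not tested in all. The share of all genes called at least once was not computed.

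The differences between resistant and sensitive cells were measured again under 5-FU and under 5-FU and irradiation, with separate libraries for each treatment. In DLD-1 cells under 5-FU 4 members were lower and 1 higher (5.23% and 3.88% of genes), and under 5-FU and irradiation 5 were lower and 2 higher (5.07% and 4.31%). ZNF182, ZNF141 and ZFP69B were lower and ZNF595 higher under all 3 treatments. The share of all genes called under all 3 treatments was not computed. ZNF273 passed both thresholds under 5-FU (-1.19 ± 0.12) and under 5-FU and irradiation (-1.14 ± 0.11), where ZNF10 (-1.01 ± 0.07) and ZNF670 (1.01 ± 0.07) passed too. ZNF141 was at -3.58 ± 0.12 under 5-FU and -3.88 ± 0.12 under 5-FU and irradiation. For ZFP69B the values were -2.39 ± 0.20 and -1.51 ± 0.18.

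In HCT-116 cells 6 members were lower under 5-FU (8.03% of genes lower, 5.28% higher) and 7 under 5-FU and irradiation (6.13% lower, 5.72% higher), with 0 higher in either. ZNF84, ZNF140, ZNF268, ZNF26, ZNF669 and ZNF641 were lower under all 3 treatments, so 4 of these 6 were chromosome 12 cluster genes. As in DLD-1, no share of all genes called under all 3 treatments was computed. ZNF268 was at -3.01 ± 0.14 under 5-FU and -2.93 ± 0.14 under 5-FU and irradiation, ZNF669 at -2.74 ± 0.16 and -2.68 ± 0.16, and ZNF26 at -1.98 ± 0.11 and -1.95 ± 0.11. ZNF680, ZFP90 and ZNF514 passed the adjusted p under every treatment and both thresholds under uracil alone. ZNF287, a gene with a mean under 0.1 TPM in both groups, was at -1.72 ± 0.41 (adjusted p = 0.00112) under 5-FU and irradiation.

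In sensitive cells 5-FU changed many members by a small amount. Past both thresholds, 1 member was lower and 0 higher in sensitive DLD-1 (1.37% and 2.66% of genes), 0 and 0 in sensitive HCT-116 (3.36% and 4.79%), and 2 lower and 0 higher in sensitive HT-29 (3.3% and 8.86%). By the adjusted p alone the counts were 10 lower and 17 higher in DLD-1 (20.3% and 14.4% of genes), 19 and 8 in HCT-116 (24.4% and 17.6%), and 25 and 11 in HT-29 (24.9% and 22.1%). The members' median log2 fold change was 0.07 (DLD-1), -0.12 (HCT-116) and -0.14 (HT-29), beside 0.01, 0.03 and 0.03 over all genes. In HCT-116, 31 members had an unadjusted p under 0.05, and DESeq2 also called 0 there, with no adjusted p for ZFP69, ZNF10 and ZNF84. The largest fall in HCT-116 was that of ZNF213, from 5.34, 4.93 and 5.5 TPM to 2.67, 2.75 and 2.59 TPM, at -0.97 ± 0.08.

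ZNF25 (chr10:37949573-37976647, − strand) was the member that fell most. In sensitive DLD-1 cells it went from 3.26, 2.75 and 2.74 TPM under uracil to 1.52, 1.47 and 1.29 TPM under 5-FU, a log2 fold change of -1.06 ± 0.11 (adjusted p = 1.03e-07). In sensitive HT-29 cells it went from 1.35, 0.772 and 1.09 TPM to 0.378, 0.52 and 0.555 TPM, at -1.37 ± 0.17 (adjusted p = 1.83e-07). The groups did not overlap in either line, and the DLD-1 call was lost with library size alone (-0.96) and without sensitive uracil replicate 1 (-0.98). ZNF202 (chr11:123723914-123741675, − strand), a SCAN member known as a repressor of genes of lipid metabolism, went from 21.9, 23.7 and 25.2 TPM to 13.4, 15.4 and 15.2 TPM in sensitive HT-29, at -1.01 ± 0.05 (adjusted p = 4.99e-15). Its fold lies at the threshold: the call was lost with DESeq2, with library size alone and without any 1 library, with a log2 fold change as small as -0.85.

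Changes in 1 direction in all 3 sensitive lines, by the adjusted p alone, were found for 5 members that fell (ZNF25, ZNF197, ZNF213, ZNF267 and ZNF670) and 2 that rose (ZNF26 and ZNF655). These are 9.09% and 3.64% of the 55 members tested in all 3 lines, beside 7.97% and 3.19% of genes. ZNF655 rose from 12.4, 13.4 and 12.3 TPM to 24.9, 24.2 and 22.6 TPM in DLD-1, by 0.78 ± 0.05 on the log2 scale. In HCT-116 it rose from 26.3, 27 and 26.3 TPM to 33.9, 33.1 and 31.2 TPM, by 0.25 ± 0.05, and in HT-29 from 19.3, 19.8 and 20.6 TPM to 34.9, 33.2 and 35.2 TPM, by 0.63 ± 0.04. Its 5-FU libraries lay above its uracil libraries in every sensitive line. ZNF26 rose by 0.82, 0.32 and 0.51 in the same order.

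Of the 55 members tested in all 3 sensitive lines, 14 (25.5%) passed the adjusted p in opposite directions in a pair of lines, beside 14.4% of 20026 genes. The cluster on chromosome 7 (ZNF680, ZNF107, ZNF273 and ZNF92) holds examples. In sensitive HCT-116 all 4 fell, with log2 fold changes of -0.80 for ZNF92, -0.77 for ZNF273, -0.76 for ZNF680 and -0.59 for ZNF107. By the adjusted p alone, 24.4% of all genes fell there. In sensitive DLD-1 ZNF107 (0.51) and ZNF273 (0.35) rose, while ZNF92 (-0.12) and ZNF680 (-0.08) did not pass. In the chromosome 12 cluster 5 of 6 members rose in sensitive DLD-1, from 0.28 (ZNF268) to 0.82 (ZNF26). By the adjusted p alone, 14.4% of all genes rose in sensitive DLD-1. The cluster's sum went from 65.7 ± 1.95 to 85.8 ± 2.26 TPM (SD, n = 3 each). ZNF84 did not pass there, at 0.10 ± 0.08 (adjusted p = 0.325).

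**Figure D5:**
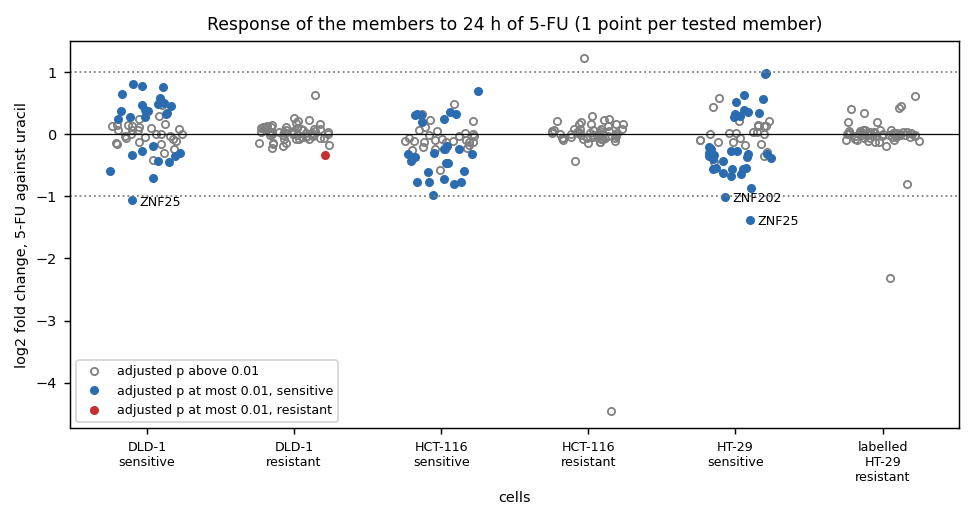
Log2 fold change of 5-FU against uracil (vertical axis) in sensitive and resistant cells of the 3 lines as labelled, 1 point per tested member, filled where the adjusted p was at most 0.01. Sensitive cells hold filled points on both sides of 0, and resistant cells hold a single filled point, ZKSCAN2 in DLD-1; the lowest open point is ZNF84 in resistant HCT-116 at -4.45, a fitted value that depends on the prior count.

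In resistant cells almost no member changed with 5-FU at this threshold. These cells had been maintained in 5-FU above the treatment concentration, and whether that bears on the small number of changes was not tested. By the adjusted p alone 1 member passed in resistant DLD-1 (ZKSCAN2, -0.33 ± 0.06 (adjusted p = 0.00817)), beside 0.385% of genes. In resistant HCT-116, and likewise for libraries labelled resistant HT-29, 0 members passed edgeR's test, beside 0% and 0.0421% of genes, with 8 and 7 members at an unadjusted p under 0.05. Past both thresholds DESeq2 called 0 members there too, but it gave no adjusted p for ZNF84 in resistant HCT-116 (-4.79), which therefore could not be called. ZNF84 in resistant HCT-116 held 1, 0 and 51.1 estimated counts under uracil and at most 1.03 under 5-FU, and its fitted -4.45 ± 1.41 (adjusted p = 0.437) depends on the prior count.

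The 5-FU response itself was compared between resistant and sensitive cells, by the adjusted p alone. In DLD-1 9 members had the lower and 5 the higher response in resistant cells (9.11% and 13.7% of genes), from ZNF26 at -0.78 ± 0.13 to ZNF25 at 1.20 ± 0.16. ZNF25 held 2.82, 2.38 and 2.39 TPM under uracil and 3.21, 2.3 and 2.64 TPM under 5-FU in resistant DLD-1 cells, ranges that overlap. In HCT-116 6 members had the lower and 13 the higher response (11.4% and 18.3%), with ZNF273 (0.85 ± 0.13) and ZNF213 (0.85 ± 0.11) at the upper end. ZNF84 had the lowest value, -4.79 ± 1.41 (adjusted p = 0.00919), a fitted value that depends on the prior count and rests on resistant uracil replicate 3: without that library the adjusted p was 0.956.

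Irradiation with 5-FU, compared with 5-FU alone, gave few differences among the members. The irradiation dose differed between lines, so the lines are not compared at an equal dose. In sensitive DLD-1 (0.0642% of genes), sensitive HCT-116 (0.927%), resistant HCT-116 (2.57%) and sensitive HT-29 (0.00842%) 0 members passed the adjusted p in edgeR's test, with 8, 2, 9 and 0 members at an unadjusted p under 0.05. A pair of members passed in resistant DLD-1 (3.85% of genes), ZNF33A at -0.28 ± 0.04 and ZNF695 at 0.33 ± 0.07. The libraries labelled resistant HT-29 had 8 (14.4% of genes), from ZNF184 at -0.38 ± 0.07 to ZFP90 at 0.32 ± 0.06. In these 6 comparisons 0 members passed both thresholds with edgeR or with DESeq2. DESeq2 gave no adjusted p for some of the members, among them ZNF84 in both kinds of HCT-116 cell, so these could not be called. ZNF33A and ZNF33B are near-identical copies, so the division of reads between them is uncertain.

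The 9 members with a SCAN domain beside KRAB are ZNF202, ZNF213, ZNF263, ZKSCAN1, ZKSCAN2, ZNF18, ZNF287, ZNF197 and ZNF445. Under uracil 0 of 9 were called for resistance in DLD-1 (2.01% of genes lower, 3.69% higher) or HCT-116 (6.8% lower, 4.17% higher). By the adjusted p alone 2 were lower in DLD-1 (11.5% of genes), and 2 were lower and 2 higher in HCT-116 (24.7% and 16.4% of genes). With 5-FU 5 of 9 fell and 1 rose in sensitive DLD-1 by the adjusted p alone (20.3% and 14.4% of genes), 3 fell and 0 rose in sensitive HCT-116 (24.4% and 17.6%), and 5 fell and 2 rose in sensitive HT-29 (24.9% and 22.1%). ZNF197 and ZNF213 fell in all 3 lines. ZNF197 went from 11.8, 11.7 and 10.8 TPM to 8.91, 9.18 and 8.58 TPM in DLD-1, at -0.44 ± 0.05, without overlap. ZNF445, which takes part in keeping genomic imprints, was at -0.30 ± 0.07 (adjusted p = 0.00124) in resistant against sensitive DLD-1 cells under uracil.

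The partners of the KRAB domain were read from a list of 24 corepressor genes. In DLD-1 and HCT-116 0 of 24 were called between resistant and sensitive cells under uracil. Over all genes, 2.01% were called lower and 3.69% higher in DLD-1, and 6.8% and 4.17% in HCT-116. By the adjusted p alone 5 of the 24 were lower and 2 higher in DLD-1 (11.5% and 13.1% of genes). In HCT-116 6 were lower and 4 higher, which is 25% and 16.7% of the list beside 24.7% and 16.4% of genes. TRIM28, the scaffold that KRAB binds, was at 0.01 ± 0.05 (adjusted p = 0.922) in DLD-1 and at 0.68 ± 0.05 (adjusted p = 5.25e-11) in HCT-116. Under 5-FU 3 corepressor genes were higher in resistant than in sensitive HCT-116 cells (5.28% of genes): CBX5, a heterochromatin protein (1.10 ± 0.05), DNMT1, the maintenance DNA methyltransferase (1.07 ± 0.04), and TRIM28 (1.01 ± 0.05). With 5-FU, 15 of 24 fell and 1 rose in sensitive HCT-116 cells by the adjusted p alone (24.4% and 17.6% of genes). In sensitive DLD-1 cells 11 fell and 4 rose (20.3% and 14.4%). In resistant cells 0 of 24 passed in either line (0% of genes in HCT-116 and 0.385% in DLD-1). By the adjusted p alone, the 5-FU response was higher in resistant cells for 14 of 24 of these genes and lower for 0 in HCT-116 (18.3% and 11.4% of genes). In DLD-1 it was higher for 12 and lower for 3 (13.7% and 9.11%), ATF7IP, CHD3 and DNMT3A.

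KZFP genes on chromosome 19 were counted beside the members. Under uracil 17 of 186 tested were lower and 3 higher in resistant DLD-1 cells, 46 of 178 lower and 6 higher in resistant HCT-116 cells, and 42 of 179 lower and 8 higher for libraries labelled resistant HT-29 against sensitive HCT-116. Over all genes the shares lower and higher were 2.01% and 3.69%, 6.8% and 4.17%, and 4.85% and 2.56% in the same order. In percent, 9.14% of the chromosome 19 genes and 5.17% of the members were lower in DLD-1, and 25.8% and 16.1% in HCT-116. The difference between these KZFP groups was not tested. Without the 6 genes of the chromosome 12 cluster, 5 of 51 members tested were lower in resistant HCT-116 cells, beside the 6.8% of genes, and their median log2 fold change was -0.12.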

How the data were processed

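RNA from 54 libraries of 3 colorectal cancer lines was poly(A)-selected and sequenced with a directional kit. According to the labels and the study's methods, the authors recovered reads from the sequencing provider's BAM files (Picard), trimmed adapters (Trimmomatic 0.36) and ran kallisto 0.44.0 against GRCh38.p13 transcripts. The deposited tables hold estimated counts per transcript, summed by the authors to genes, and TPM made by kallisto for the same features. Whether the strand was used in counting is not given in the sources used here, so 35 members that overlap a gene on the opposite strand may share reads with it. Of the gene counts 60.7% were exactly whole with zeros included, and 27.5% of those above 0, and counts were rounded before testing.

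The members and gene lists were chosen with earlier results of these data known. Values per library follow a rule: members past both thresholds in at least 2 of 3 resistant against sensitive comparisons, the 3 largest falls and rises past both thresholds in each comparison (mean of at least 1 TPM in a group), members with RT-qPCR primers, and the 3 highest and 3 lowest members by level. Other members with values per library (among them ZNF140, ZNF641, ZNF680, ZFP90, ZNF655, ZNF620 and ZNF124), and the genes beside the cluster, were chosen after their values were seen. Each line's 18 libraries were fitted in 1 model of 6 groups with 12 residual degrees of freedom, using edgeR 4.0.16 (glmQLFit, TMM scaling, filterByExpr) in R 4.3.3. All adjusted p-values are from edgeR's quasi-likelihood test with the Benjamini-Hochberg method over all genes tested in that fit. The libraries labelled resistant HT-29 were also fitted with the 18 HCT-116 libraries (27 libraries), and DLD-1 with HCT-116 (36 libraries) for the difference between lines. A fold against a group with at most 3 counts in each library is given as a lower bound, and a fitted value printed for such a group depends on the prior count. The SE printed with a log2 fold change, derived from the F value, can understate the uncertainty of genes near the floor. For ZNF84 in resistant against sensitive HCT-116 cells under uracil, the fitted value ran from -10.3 to -4.80 when 1 library was left out. The 54 pairs of replicates all differed beyond counting noise. KRAB and SCAN domains were searched with jackhmmer in translated reference transcripts and zinc fingers by their C2H2 spacing, and promoter windows came from RefSeq. The functions that compute the tests were tested on simulated data. The alternatives were DESeq2 1.42.0, library size without TMM, no filter on low counts, only the groups compared, a replicate block, thinning of the deepest library, and leaving out each library in turn.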

Additional observations from a re-analysis of the deposited data

Results flagged for a closer look

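The difference between resistant and sensitive cells under uracil was itself different between DLD-1 and HCT-116 for 13 members past both thresholds, by edgeR's quasi-likelihood test of the interaction with Benjamini-Hochberg adjustment (log2, DLD-1 minus HCT-116, ± SE). It was lower in DLD-1 for ZNF182 at a fitted -7.64 ± 0.34 (adjusted p = 1.2e-19), which depends on the prior count because resistant DLD-1 libraries held at most 1 count. Resistant cells were at least 59.3-fold lower for it in DLD-1, and its HCT-116 log2 fold change was -0.28. It was also lower for ZNF141 at -2.99 ± 0.27 (adjusted p = 1.14e-11) and ZFP69B at -1.91 ± 0.44 (adjusted p = 0.000493). It was higher in DLD-1 for the chromosome 12 genes ZNF84 at 5.26 ± 0.34 (adjusted p = 4.06e-15), ZNF140 at 3.71 ± 0.54 (adjusted p = 5.29e-07), ZNF268 at 2.39 ± 0.15 (adjusted p = 2.39e-15) and ZNF26 at 1.93 ± 0.14 (adjusted p = 1.5e-13). The sizes for ZNF84 and ZNF140 rest on few counts: resistant HCT-116 uracil libraries held 1, 0 and 51.1 of ZNF84 and 1, 0 and 4 of ZNF140. ZNF595 stood at 3.94 ± 0.73 (adjusted p = 3.09e-05), but it was too low to be tested in HCT-116 and entered the joint fit through resistant DLD-1, so the value carries its DLD-1 rise alone. ZNF669 stood at 3.13 ± 0.17 (adjusted p = 1.43e-17). The remaining values were 1.74 ± 0.10 for ZNF641 (adjusted p = 2.63e-16), 1.33 ± 0.12 for ZNF680 (adjusted p = 3.95e-11), 1.17 ± 0.10 for ZFP90 (adjusted p = 1.02e-11) and 1.04 ± 0.12 for ZNF670 (adjusted p = 2.48e-09). ZNF670 was higher in resistant DLD-1 and lower in resistant HCT-116 cells under uracil, past the adjusted p in each line but under the fold threshold in both.

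The 5-FU response of ZNF25 differed between resistant and sensitive DLD-1 cells by 1.20 ± 0.16 (adjusted p = 5.36e-06). That of ZNF84 differed between resistant and sensitive HCT-116 cells by -4.79 ± 1.41 (adjusted p = 0.00919), a fitted value that depends on the prior count and rests on resistant uracil replicate 3. Without that library the adjusted p was 0.956, with at most 1.03 counts in each resistant uracil or 5-FU library left.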

How the results depend on the processing

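Of 253 recomputed counts of members 230 lay within 1.5 times the reported count, and of 367 recomputed values of single members 354 kept their call, 13 lost it and 0 changed direction. Values without an adjusted p were left out of the 367, among them that of DESeq2 for ZNF84 between resistant and sensitive HCT-116 cells. Most of the moved counts concern 5-FU in sensitive cells, where a few members lie at the fold threshold. In sensitive DLD-1 the member lower with 5-FU (ZNF25) was lost with library size alone (0 members), and leaving out 1 library gave 0 to 1. In sensitive HT-29 the 2 lower members became 1 with DESeq2, with library size alone, with only the groups compared and without any 1 library, since ZNF202 was lost. The 0 higher members there became 1 with DESeq2 and with the replicate block (ZNF684), 2 with library size alone and with only the groups compared (ZNF10 and ZNF684), and 0 to 2 without 1 library. In sensitive HCT-116 the count of lower members was 0 to 1 without 1 library (ZNF213, without sensitive uracil replicate 2). In resistant against sensitive HCT-116 cells the count of higher members was 0 to 1 (ZNF785, without sensitive uracil replicate 1). In resistant HCT-116 1 member passed with 5-FU when no filter on low counts was used (ZNF84). The cause was not tested. For the 5-FU responses that differ in HCT-116, libraries were left out in turn after the data had been seen, which gave 14 to 18 members in place of 19.

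Replicate numbers were not treated as pairs, since 0 of 45 same-number pairs in each line had a correlation of deviations above 0.1. The highest was 0.099, in HCT-116. A low correlation cannot show that libraries of the same number were prepared apart. The replicate block lost ZNF140 between resistant and sensitive HCT-116 cells under 5-FU (5 members in place of 6) and ZNF84 among the 5-FU responses that differ in HCT-116 (18 in place of 19). The size of the ZNF84 fall rests on 1 library: without HCT-116 resistant uracil replicate 3 the remaining libraries held 1 and 0 counts of ZNF84 and likewise of ZNF140, so only lower bounds can be given, at least 232-fold and 7.7-fold lower. ZNF141 in the libraries labelled resistant HT-29 against sensitive HT-29 lost its call with library size alone (-0.85) and without resistant replicate 3 (-0.95). DESeq2 gave no adjusted p for ZNF84 between resistant and sensitive HCT-116 cells (-5.34). Near-zero members such as ZNF287, ZNF140 and ZNF84 in resistant HCT-116 cells are limited by depth, since a few counts set their values.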
